A study of Mus musculus with 4 samples.

Results

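The 10 genes *Alcam*, *Mcam*, *Bcam*, *L1cam*, *Epcam*, *Cadm1*, *Vcam1*, *Icam1*, *Ncam1* and *F11r* encode adhesion molecules of the cell surface. They were selected by gene symbol from the 31053 genes counted in mouse kidney nuclei, and all 10 were found. All but *Epcam* encode proteins with immunoglobulin-type domains. EpCAM is built from other domains and is an adhesion molecule of epithelia, so the label of an immunoglobulin-type family covers the other members only.

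Single-nucleus RNA-seq was performed on medulla-enriched kidney slices of 4 male mice aged 12 weeks, with 1 library per mouse. The 2 knockout mice carried *Hoxb7Cre*+ and *Tfap2a* fl/fl. The 2 control mice were Cre- with *Tfap2a*Flox/Flox, so the floxed allele was shared by all 4 mice and the groups differed by the Cre transgene. *Hoxb7Cre* is active in cells of ureteric origin, from which the collecting duct (CD) arises, and not in the nephron tubule, vessels or stroma.

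Adhesion molecules of this kind join neighbouring cells by binding the same or a partner molecule on the next cell, and several also recruit leukocytes or bind the basement membrane. In kidney tubules they sit along the lateral and basal membranes of epithelial cells. The comparison of both genotypes asks whether their transcripts depend on *Tfap2a*, which encodes a transcription factor of the AP-2 family that is active in CD principal cells (CD-PCs).

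The libraries held 22179410 to 44964099 UMIs (unique molecular identifiers, each standing for 1 counted RNA molecule), and 5430 to 7997 nuclei per mouse were kept, 27341 in all. A nucleus had a median of 2505 to 2797 UMIs per library. Between 7 and 18 barcodes were shared by any pair of libraries. The median mitochondrial share of UMIs was 1.66% and 0.671% in the control libraries and 1.05% and 0.417% in the knockout libraries. Nuclei were grouped into 12 broad classes named from marker genes, and CD-PCs were divided further into Aqp3-high and Aqp3-low cells and inner medullary collecting duct (IMCD). All levels below are CPM, the UMIs of a gene scaled to the total UMIs of its class in 1 mouse, and they compare classes or mice for the same gene, not genes with each other. *Aqp2*, the water channel of principal cells, stood at 7501 and 6647 CPM in CD-PCs of the control mice and at 64.4 and 88.8 CPM in endothelial cells. In each mouse the markers of a broad class summed to more than those of any other class, except in interstitial cells of knockout mouse 1, where proximal tubule markers summed to 2837 CPM and interstitial markers to 2240 CPM. In Aqp3-low cells of control mouse 1 the markers of connecting tubule (6074 CPM) exceeded those of principal cells (5572 CPM). Among the 7 immune markers, *Itgam* was at 0 UMIs in the immune class of all 4 mice. Of the members, *Alcam*, *Bcam*, *Epcam*, *Cadm1*, *Vcam1* and *Ncam1* were among the genes used for clustering, so their spread over classes is a description and was not tested.

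**Figure D1:**
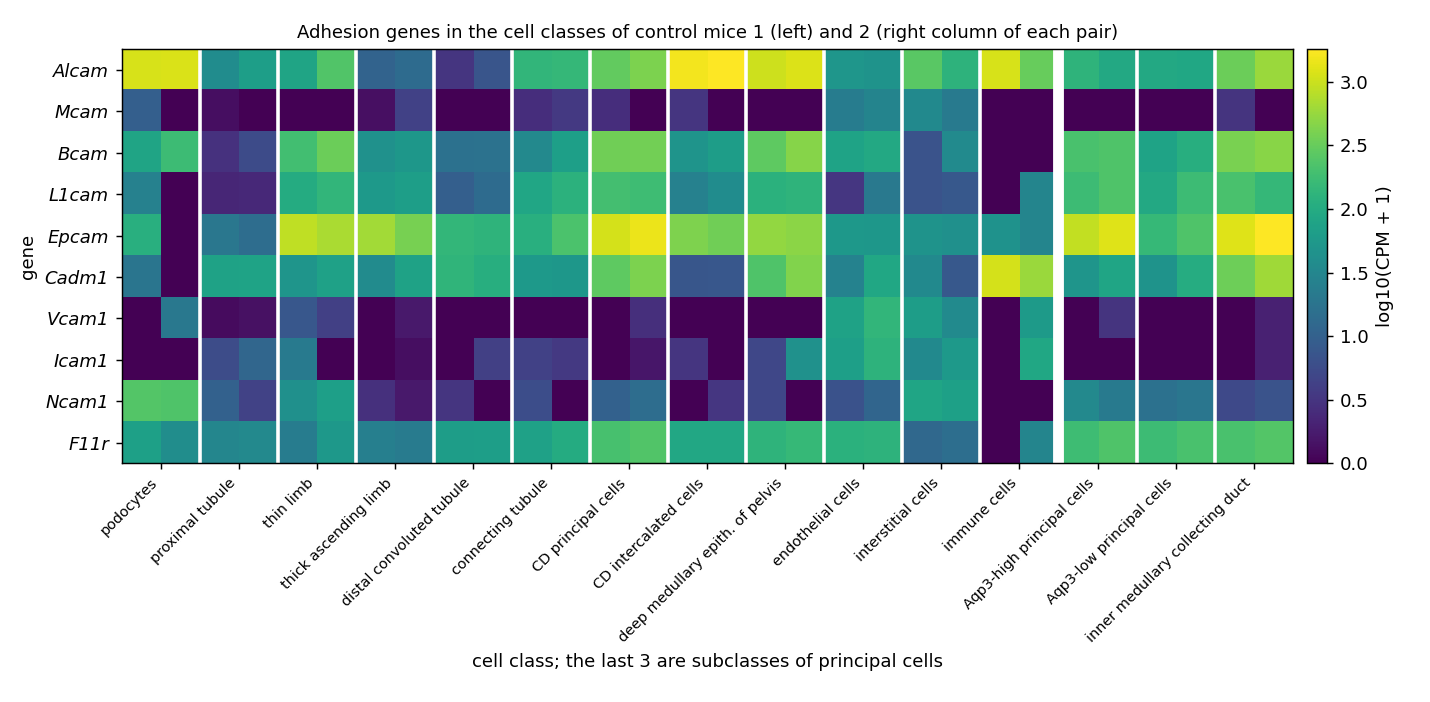
Levels of the 10 adhesion genes (rows) in the 12 broad classes and 3 subclasses of CD-PCs (columns) of control mice 1 and 2, as log10(CPM + 1). Among the broad classes *Epcam* is highest in CD-PCs, *Alcam* in intercalated cells, and *Vcam1* and *Icam1* in endothelial cells.

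*Alcam* (ENSMUSG00000022636, chr16:52248996-52453081 of GRCm38.p6) encodes a homophilic adhesion molecule that also binds CD6 on T cells. In control mice its highest level was in CD intercalated cells (CD-ICs), the acid-base transporting cells of the duct, with 1598 and 1789 CPM (1693 ± 135, SD, n = 2). Podocytes (1159 and 1180 CPM) and deep medullary epithelium of the pelvis (1024 and 1217 CPM) followed, and their ranges overlapped. Immune cells varied from 1157 CPM in control mouse 1 to 320 CPM in control mouse 2. CD-PCs held 301 and 405 CPM (353 ± 73.9, SD, n = 2), below each of the 3 leading classes in both mice and overlapping only the immune class among the classes above them.

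Lower *Alcam* levels were found along the rest of the tubule. Interstitial cells held 266 and 125 CPM, thin limb 78.7 and 232 CPM and connecting tubule 137 and 149 CPM, and the ranges of interstitial cells and thin limb overlapped. Proximal tubule had 37.6 and 66.5 CPM and endothelial cells 50.9 and 46.2 CPM. The lowest levels were those of thick ascending limb (TAL), with 9.98 and 12.9 CPM, and of distal convoluted tubule, with 1 and 2 UMIs. In free RNA, measured in barcodes under 100 UMIs, *Alcam* stood at 36.2 and 60.7 CPM in the control mice, so the levels of proximal tubule and endothelial cells lay near those of free RNA and those of TAL and distal convoluted tubule below them.

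Within the collecting duct *Alcam* was unevenly spread. IMCD held 337 and 580 CPM, above the 131 and 91.1 CPM of Aqp3-high cells and the 91.3 and 85.2 CPM of Aqp3-low cells in both mice, and the last 2 overlapped. The level in the 56 CD-PC nuclei outside these subclasses, 4 and 40 of them from the control mice, was not determined. IMCD therefore ranked first among the named subclasses only. The IMCD nuclei fell mainly into 2 subclusters, of which the one with more *Aqp2* (12652 and 9076 CPM) had 428 and 612 CPM of *Alcam* and the other 273 and 540 CPM. Both clusters of CD-ICs carried it. The cluster with *Slc4a1*, the anion exchanger gene of type A cells, held 1780 and 1900 CPM, and the cluster with *Slc26a4*, the pendrin gene of type B cells, held 1466 and 1509 CPM.

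*Epcam* (ENSMUSG00000045394, chr17:87635979-87651127) was highest in CD-PCs, with 1120 and 1445 CPM (1282 ± 230, SD, n = 2). Thin limb followed with 888 and 692 CPM, then deep medullary epithelium with 541 and 486 CPM, TAL with 634 and 383 CPM and CD-ICs with 417 and 355 CPM. The ranges of the last 3 formed an overlapping series. Proximal tubule, although epithelial, held 18.7 and 13.4 CPM, under the 123 and 227 CPM of free RNA in the same mice. Within TAL the larger cluster, led by *Slc12a1*, held 792 and 447 CPM and the cluster led by *Enox1* and *Egf* 283 and 207 CPM. Among CD-PCs, IMCD (1236 and 1806 CPM) and Aqp3-high cells (914 and 1261 CPM) overlapped, and Aqp3-low cells stood lower at 152 and 225 CPM.

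*Bcam* (ENSMUSG00000002980, chr7:19756138-19770532) encodes a receptor of laminin α5, a chain of the tubular basement membrane. Its leading classes were deep medullary epithelium (280 and 460 CPM), CD-PCs (352 and 361 CPM) and thin limb (184 and 336 CPM), of which the first overlapped both others. The subclasses were ordered without overlap, with 404 and 475 CPM in IMCD, 207 and 229 CPM in Aqp3-high cells and 76.1 and 110 CPM in Aqp3-low cells. In CD-ICs *Bcam* was found in the *Slc4a1* cluster at 92.3 and 90.5 CPM, while the *Slc26a4* cluster held 4 and 0 UMIs.

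*L1cam* (ENSMUSG00000031391, chrX:73853778-73880838) is best known as a neural adhesion molecule and also marks the ureteric bud and its derivatives. CD-PCs had the highest level, 193 and 173 CPM (183 ± 14.2, SD, n = 2). Deep medullary epithelium (121 and 130 CPM), thin limb (101 and 140 CPM) and connecting tubule (82.7 and 124 CPM) formed an overlapping group below it. TAL held 55.1 and 65.3 CPM and proximal tubule 1.23 and 1.37 CPM. The 3 subclasses of CD-PCs overlapped between neighbours, from 169 and 231 CPM in Aqp3-high cells to 91.3 and 170 CPM in Aqp3-low cells.

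*Cadm1* (ENSMUSG00000032076, chr9:47530170-47862280) encodes a nectin-like molecule that binds CRTAM on lymphocytes as well as itself. Its highest level was in immune cells, at 1112 and 582 CPM from 49 and 20 UMIs. CD-PCs (284 and 412 CPM) and deep medullary epithelium (226 and 431 CPM) came next and overlapped. CD-ICs, next to principal cells in the same duct, held 6.45 and 6.69 CPM, from 3 UMIs in each mouse. Within CD-PCs the level was 348 and 620 CPM in IMCD and 49.0 and 80.5 CPM in Aqp3-high cells. Proximal tubule as a class had 73.6 and 75.4 CPM, but its clusters differed: the cluster led by *Cyp7b1* and *Wdr17* held 9.45 and 10.6 CPM and a cluster led by *Slc5a12* and *Bnc2* 157 and 197 CPM.

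*F11r* (ENSMUSG00000038235, chr1:171437561-171464593) encodes JAM-A, a component of tight junctions that binds the polarity protein PAR3. CD-PCs held 200 and 235 CPM, deep medullary epithelium 129 and 153 CPM and endothelial cells 118 and 126 CPM, in this order without overlap. CD-ICs (88.2 and 89.2 CPM) overlapped connecting tubule (72.8 and 99.2 CPM). Its 3 subclasses of CD-PCs overlapped, with all values between 167 and 243 CPM. TAL (24.4 and 21.9 CPM) and proximal tubule (30.7 and 33.2 CPM) were below the 44.2 and 44.0 CPM of free RNA.

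The remaining members had few UMIs in CD-PCs. *Vcam1* (ENSMUSG00000027962, chr3:116110020-116129688), the endothelial ligand of integrin α4β1, held 74.6 and 140 CPM in endothelial cells and 63.5 and 34.7 CPM in interstitial cells. *Icam1* (ENSMUSG00000037405, chr9:21015940-21028814), the ligand of leukocyte β2 integrins, held 67.8 and 128 CPM in endothelial cells and 34.6 and 55.5 CPM in interstitial cells. For both genes endothelial cells stood above interstitial cells without overlap, and CD-PCs held 0 to 3 UMIs per control mouse. *Ncam1* (ENSMUSG00000039542, chr9:49502129-49799393), a homophilic neural adhesion molecule, was highest in podocytes at 244 and 228 CPM, followed by interstitial cells (80.8 and 69.3 CPM) and thin limb (42.7 and 68.2 CPM). *Mcam* (ENSMUSG00000032135, chr9:44134658-44142727), an adhesion molecule of vessels and their mural cells, had 66 UMIs in all classes of the control mice. Interstitial cells ranked first, at 34.6 and 20.8 CPM from 6 and 3 UMIs, and overlapped endothelial cells, at 22.6 and 28.4 CPM from 20 and 16 UMIs.

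For the 9 members with at least 100 UMIs in the control nuclei, the genes with the most similar spread over the 12 broad classes were looked up by Pearson's r of log2(CPM + 10), among 11781 other genes. The classes share the same 2 mice and differ in depth, so r is a description. *Alcam* was closest to *Nacc1* (r = 0.91), *Lrp1b* and *Anp32e* (both r = 0.84). *L1cam* was closest to *Ehf* (r = 0.95), a transcription factor of epithelia, and to *Dsp* (r = 0.94) and *Lad1* (r = 0.92), which encode a desmosomal and a basement membrane protein. *Epcam* was closest to *Eps8l1* (r = 0.96), *C1qtnf4* (r = 0.95) and *Spint2* (r = 0.95), the last being a protease inhibitor of epithelia. *Cadm1* was closest to *Fgd3* (r = 0.94), *Cib1* (r = 0.92) and *Ube2q2* (r = 0.89).

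*Vcam1*, among 11782 genes, was closest to *Emcn* (r = 0.98), *Plxnd1* and *Fgd5* (both r = 0.97), and *Icam1* to *Marcks* (r = 0.95), *Ifitm3* and *Slfn5* (both r = 0.94). *Ncam1* was closest to *Plekhh2* (r = 0.96), *Hspa12a* (r = 0.95) and *Kirrel* (r = 0.94), the last encoding the slit diaphragm protein NEPH1 of podocytes. *Bcam* was closest to *Ubl5* (r = 0.97), *Edf1* and *Slu7* (both r = 0.96), and *F11r* to *Pin4*, *Ypel5* and *Rab15* (each r = 0.87).

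Promoters of the members were searched for GCCNNNGGC, the core sequence recognised by AP-2 factors, which is its own reverse complement. RefSeq promoters of GRCm38.p6, each 300 bases from 250 before to 50 after a transcription start, were at hand for 7 members. The sequence occurred in 4 of their 8 promoters, those of *Mcam*, *Bcam*, *Icam1* and *F11r*, and in 5450 of all 32851 promoters (16.6%). It was not in those of *Alcam*, *L1cam* (2 promoters) or *Epcam*. This search covered a single sequence form in short promoters only. The study scanned regions of open chromatin, distal ones included, for *Tfap2a* motifs, which was not repeated here. The 250 bases before the start of *Alcam* (chr16:52453082-52453331, minus strand), the member described first, are shown first. The 4 matches are shown after it, with the match in capitals and 10 bases on either side: *Mcam* chr9:44134527-44134555 (plus), *Bcam* chr7:19770679-19770707 (minus), *Icam1* chr9:21015703-21015731 (plus) and *F11r* chr1:171437559-171437587 (plus).
Alcam: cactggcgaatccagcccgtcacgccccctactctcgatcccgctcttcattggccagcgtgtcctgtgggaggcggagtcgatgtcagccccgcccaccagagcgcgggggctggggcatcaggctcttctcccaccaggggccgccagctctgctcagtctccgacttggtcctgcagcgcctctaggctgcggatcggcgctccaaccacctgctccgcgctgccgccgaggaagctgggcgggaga
Mcam: cagccagcgcGCCGGGGGCccgcccccta
Bcam: gaggaggagaGCCGCAGGCgtgggttgga
Icam1: actcctggagGCCCGGGGCcttctctccg
F11r: ctagagtccaGCCCAGGGCagtggatcgc
The matches began 121, 165 and 227 bases before the start in *Mcam*, *Bcam* and *Icam1*, and at base 9 after it in *F11r*. A match describes these letters only, and whether a factor binds there was not measured.

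Before the genotypes were compared, the targeted gene was examined. In CD-PCs, *Tfap2a* UMIs numbered 69 and 178 for control and 64 and 77 for knockout mice, or 57.5 and 101 CPM against 70.9 and 114 CPM, which overlapped. These libraries count the 3′ end of transcripts and the floxed exons lie before it, so transcripts that lack them can still be counted and the values do not check the genotype labels. In deep medullary epithelium *Tfap2a* had 11 UMIs in each control mouse and 0 in each knockout mouse (adjusted p = 0.586, edgeR).

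The study reported lower *Alcam* in knockout than in control principal cells of the outer medullary collecting duct, by a test on pooled nuclei. It also reported this by in situ hybridization on kidney sections. Its discussion described *Alcam* as consistently lower across its datasets, and the study also ran bulk RNA-seq of whole kidneys. The data here include neither the sections nor the bulk RNA-seq. The Aqp3-high cells were taken as the nearest subclass, chosen by *Aqp3* and *Scnn1b*, and whether they are the same cells was not tested. In them *Alcam* was counted with 24 and 43 UMIs in 57 and 129 control nuclei, by mouse, and with 25 and 15 UMIs in 94 and 39 knockout nuclei. The levels were 131 and 91.1 CPM against 78.6 and 119 CPM. Knockout mouse 2 lay between the control mice, so the genotypes overlapped. The log2 fold change of knockout over control was -0.21 ± 0.36 (SE), with an adjusted p of 0.999 by edgeR's quasi-likelihood test on sums per mouse. Its sign rested on single mice: without control mouse 1 it was 0.01, without knockout mouse 1 it was 0.15, and among nuclei under 1% mitochondrial UMIs it was 0.12.

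In CD-PCs as a whole, IMCD and CD-ICs the genotypes also overlapped for *Alcam*, while in Aqp3-low cells, described further on, they did not. CD-PCs as a whole held 301 and 405 CPM in control and 279 and 310 CPM in knockout mice, and the log2 fold change was -0.27 ± 0.31 (SE, adjusted p = 0.9997, edgeR). These sums include the 56 nuclei outside the named subclasses, of which 40 came from control mouse 2. IMCD held 337 and 580 against 439 and 420 CPM, with both knockout mice inside the control range. In CD-ICs, where *Alcam* was highest, the levels were 1598 and 1789 CPM in control and 1506 and 1822 CPM in knockout mice, again overlapping. Deep medullary epithelium held 1024 and 1217 against 1189 and 1090 CPM, with both knockout mice inside the control range.

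**Figure D2:**
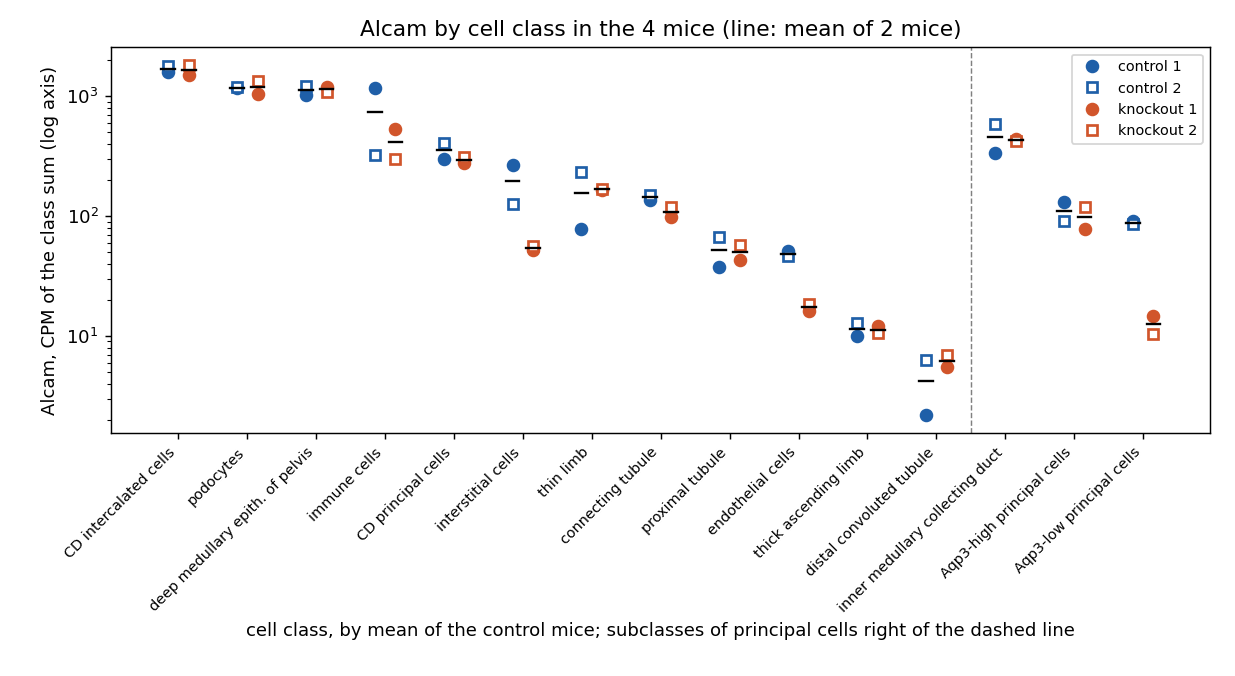
*Alcam* in CPM (log axis) by class for control mice (blue) and knockout mice (orange), with circles for mouse 1, squares for mouse 2 and a line at the mean of 2 mice. The genotypes overlap in CD-ICs, CD-PCs and Aqp3-high cells and are apart in connecting tubule and in endothelial, interstitial and Aqp3-low principal cells.

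Across 15 classes and subclasses, 99 tests of a member could be made, since a gene needed at least 10 UMIs over the 4 mice. None of the 99 was called at an adjusted p under 0.05 by edgeR, and 5 had an unadjusted p under 0.05, each lower in the knockout. Of all genes tested in a class, 1.68% (IMCD) to 4.56% (deep medullary epithelium) had an unadjusted p under 0.05. DESeq2 also called 0. The share of all tested genes that were called was 0% in CD-PCs, CD-ICs, IMCD, Aqp3-low cells, podocytes, thin limb, distal convoluted tubule, connecting tubule and interstitial cells. It was 0.0299% in Aqp3-high cells, 0.00563% in proximal tubule, 0.00678% in TAL, 0.00972% in deep medullary epithelium, 0.016% in endothelial cells and 0.0482% in immune cells, so few genes of any kind passed. With 2 mice against 2 an exact permutation test cannot go below p = 0.333, and p-values here rest on edgeR's model. In simulated CD-PC sums 62% of genes changed 4-fold and 10% of those changed 2-fold were recovered, and in simulated Aqp3-high sums 47% and 6%, so a 2-fold change was seldom detectable.

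Of the 7 members tested in CD-PCs, *Bcam* was the one whose genotypes did not overlap. It held 352 and 361 CPM in control and 371 and 466 CPM in knockout mice, a log2 fold change of 0.22 ± 0.30 (SE, adjusted p = 0.9997, edgeR). Among all genes tested in this class, 13.6% were higher in both knockout mice and 13.1% lower in both. The same pattern was seen for *Bcam* in IMCD (404 and 475 against 519 and 624 CPM) and Aqp3-low cells (76.1 and 110 against 131 and 135 CPM), whose nuclei are part of CD-PCs. It was also seen in TAL (42.9 and 52.4 against 59.6 and 64.4 CPM). In IMCD, Aqp3-low cells and TAL, 12.9%, 15.6% and 14.7% of all genes did so. In free RNA *Bcam* stood at 30.7 and 66.0 CPM in control and 30.2 and 89.7 CPM in knockout mice. The TAL levels lay within this range. In Aqp3-high cells *Bcam* was lower in both knockout mice, at 198 and 190 CPM against 207 and 229 CPM, as were 16% of all genes.

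The other members overlapped between genotypes in CD-PCs. *Epcam* held 1120 and 1445 CPM in control and 1062 and 1446 CPM in knockout mice, a log2 fold change of -0.04 ± 0.39 (SE). *L1cam* held 193 and 173 against 155 and 178 CPM, with -0.14 ± 0.27. *Cadm1* held 284 and 412 against 258 and 479 CPM, with 0.07 ± 0.37. For *F11r* the levels were 200 and 235 against 204 and 187 CPM, with -0.16 ± 0.28. *Ncam1*, at 9.17 and 13.7 against 9.97 and 7.37 CPM, gave -0.40 ± 0.54. Each of these had an adjusted p of 0.9997 by edgeR. *Mcam*, *Vcam1* and *Icam1* had too few UMIs in CD-PCs to be tested.

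**Figure D3:**
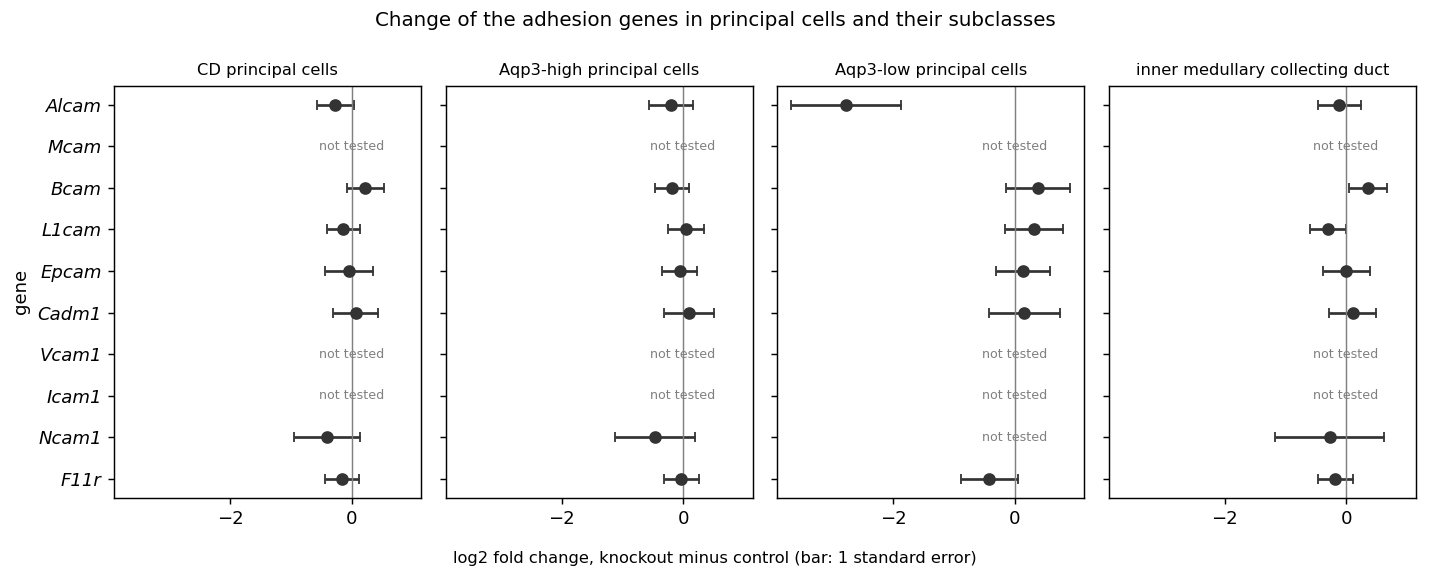
Log2 fold change of each member, knockout minus control, in CD-PCs and their 3 subclasses, with bars of 1 standard error; a gene under 10 UMIs was not tested. All changes but 1 lie within 1 log2 unit of 0, the exception being *Alcam* in Aqp3-low cells, which rests on 1 UMI in each knockout mouse.

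The 5 pairs of gene and class with an unadjusted p under 0.05 were all of *Alcam* or *Cadm1*, and each rested on few UMIs. *Alcam* in endothelial cells was counted with 45 and 26 UMIs in control and 12 and 8 in knockout mice. The levels of 50.9 and 46.2 CPM against 16.2 and 18.6 CPM gave a log2 fold change of -1.47 ± 0.38 (SE, adjusted p = 0.698, edgeR). In this class 17.3% of all genes were lower in both knockout mice. Among nuclei under 1% mitochondrial UMIs the log2 fold change was -0.81. In free RNA *Alcam* stood at 36.2 and 60.7 CPM for control and 57.9 and 73.2 CPM for knockout mice.

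*Cadm1* in endothelial cells held 27.1 and 87.0 CPM against 17.6 and 23.2 CPM, from 24 and 49 control UMIs and 13 and 10 knockout UMIs. The log2 fold change was -1.42 ± 0.52 (SE, adjusted p = 0.999, edgeR). It was -0.40 without control mouse 2 and -2.08 without control mouse 1. When the members were left out of the genes used for clustering it was -0.23, but in other nuclei. There a mixed cluster of 388 nuclei was left out whole, and the endothelial class held 1293 nuclei instead of 1584. The effects of the clustering genes and of the missing nuclei were not told apart.

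Endothelial nuclei lay in a large cluster and in the part of a mixed cluster that finer clustering set apart, the latter with *Aqp1* at 1643 and 1850 CPM in the control mice, where the large one had 129 and 73.8 CPM. The smaller cluster held 23.3% and 24.2% of endothelial nuclei for control and 9.01% and 16.0% for knockout mice. Of the *Alcam* UMIs it held 31 of 45 and 11 of 26 for control and 4 of 12 and 5 of 8 for knockout mice. Its *Alcam* level was 118 and 64.6 CPM in control and 42.4 and 58.6 CPM in knockout mice, and its *Cadm1* level was 75.9 and 188 against 53.0 and 70.3 CPM. In the large cluster *Alcam* held 22.5 and 38.2 against 12.4 and 8.68 CPM, and *Cadm1* 6.44 and 43.3 against 12.4 and 11.6 CPM. In both clusters *Alcam* of the knockout mice lay below that of both control mice, on 3 to 31 UMIs per mouse, while *Cadm1* overlapped in the large one. The part of the unequal cluster shares in these differences was not tested. The 9 markers of CD-PCs summed to 136 and 195 CPM in endothelial cells of the control mice and to 153 and 190 CPM in those of the knockout mice, with none at 0, and overlapped. The 6 thin limb markers, *Aqp1* among them, summed to 658 and 689 against 326 and 485 CPM with none at 0. Those of deep medullary epithelium summed to 59.9 and 92.3 against 31.1 and 81.2 CPM, which overlapped. The part of both lists was not tested.

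In interstitial cells *Alcam* was counted with 46 and 18 UMIs in control and 5 and 4 in knockout mice, or 266 and 125 CPM against 52.3 and 56.5 CPM. The log2 fold change was -1.87 ± 0.56 (SE, adjusted p = 0.994, edgeR), in a class where 16.3% of all genes were lower in both knockout mice. It was -1.20 without control mouse 1, in which 5 of 84 nuclei held 34 of the 46 UMIs, and -1.41 under 1% mitochondrial UMIs. The 7 endothelial markers moved in the same direction, summing to 803 and 839 CPM in control and 325 and 452 CPM in knockout mice, with none at 0. So did the 6 thin limb markers, at 196 and 166 against 136 and 98.9 CPM. Markers of the classes richest in *Alcam* summed to 63.5 and 34.7 against 73.3 and 56.5 CPM (CD-ICs), and 34.6 and 41.6 against 31.4 and 56.5 CPM (deep medullary epithelium), both overlapping. Those of podocytes summed to 63.5 and 118 against 31.4 and 56.5 CPM. The part of any of these in the difference was not tested. *Ncam1* (80.8 and 69.3 against 20.9 and 56.5 CPM) and *Icam1* (6 and 8 against 2 and 0 UMIs) were also lower in both knockout mice here, both with unadjusted p above 0.05.

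*Alcam* in Aqp3-low principal cells was counted with 6 and 14 UMIs in control mice and with 1 in each knockout mouse, at 91.3 and 85.2 CPM against 14.6 and 10.4 CPM. Over the pooled UMIs of each genotype, the level in knockout was 0.140 of that in control, with an exact 95% interval from 0.0158 to 0.575 that covers counting error only. The fitted log2 fold change of -2.78 ± 0.90 (SE, adjusted p = 0.999, edgeR) depends on the prior count. In this class 14.5% of all genes were lower in both knockout mice. The 6 markers of connecting tubule summed to 6074 and 2697 CPM in control and 2840 and 2039 CPM in knockout mice, which overlapped, and their part was not tested. Leaving the members out of clustering gave a log2 fold change of -1.75, in a larger set of nuclei. The subclass then held 249 nuclei instead of 178, with 115 instead of 67 from control mouse 2.

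For *Cadm1* in immune cells there were 49 and 20 UMIs in control and 13 and 4 in knockout mice, from 28, 21, 46 and 12 nuclei. The levels of 1112 and 582 CPM against 196 and 201 CPM gave a log2 fold change of -2.13 ± 0.62 (SE, adjusted p = 0.462, edgeR). Lower levels in both knockout mice were found for 16.5% of all genes of this class. In control mouse 1, 5 nuclei held 40 of the 49 UMIs, and without this mouse the log2 fold change was -1.57. The median mitochondrial share of the class was 3.68% and 1.55% in control and 2.11% and 0.743% in knockout mice. The 7 immune markers summed to 9417 and 7881 CPM in control and 11917 and 8646 CPM in knockout mice, which overlapped, with *Itgam* at 0. *Cd74* made up most of these sums, at 7171 and 5147 against 9277 and 4926 CPM. *Skap1*, another of the 7, stood at 567 and 553 against 498 and 1810 CPM, while *Cd3e* had 1 to 3 UMIs per mouse. Whether the mix of immune cells differed between mice was not tested. The 9 markers of CD-PCs, 2 of them at 0, summed to 136 and 29.1 against 317 and 302 CPM, and their part was not tested.

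**Figure D4:**
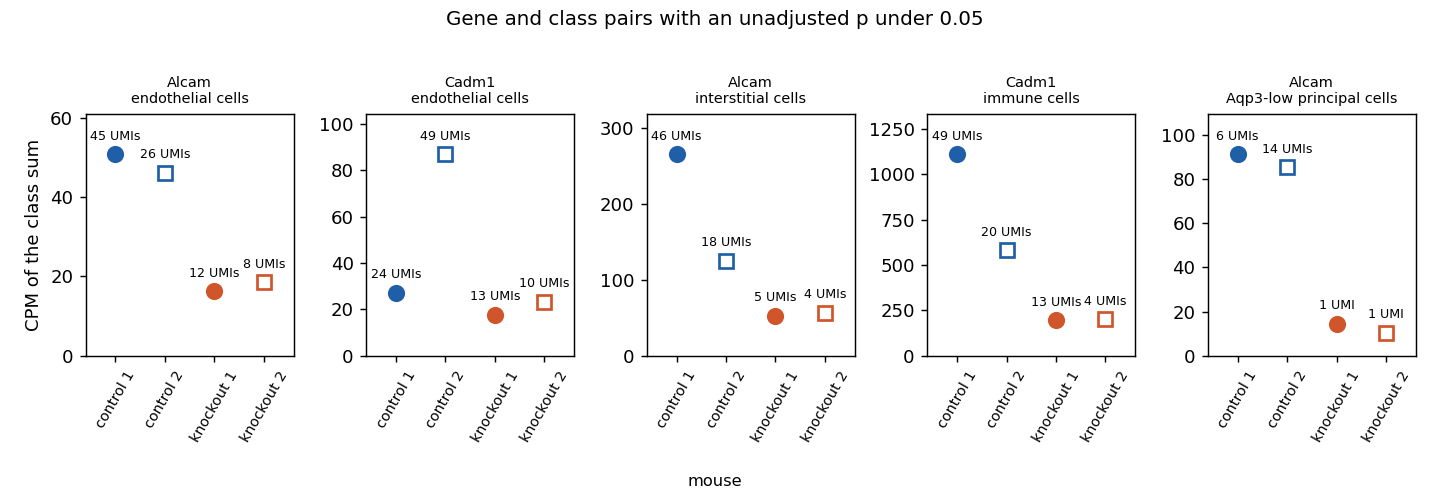
CPM in each mouse for the 5 pairs of gene and class with an unadjusted p under 0.05, with the UMIs behind each value; axes start at 0. Both knockout mice lie under both control mice in each panel, and the knockout values rest on 1 to 13 UMIs.

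In the remaining classes no member had an unadjusted p under 0.05. *Ncam1* in podocytes, its highest class, held 244 and 228 CPM in control and 154 and 86.7 CPM in knockout mice, from 28, 12, 11 and 6 UMIs, where 14.8% of all genes were lower in both and 17.2% higher in both. *L1cam* in TAL held 55.1 and 65.3 against 47.2 and 46.2 CPM, where 15.1% of genes were lower in both. *Alcam* (137 and 149 against 97.9 and 120 CPM) and *Cadm1* (54.6 and 52.1 against 36 and 46.1 CPM) were lower in both knockout mice in connecting tubule, as were 12.9% of its genes. *Cadm1* in distal convoluted tubule held 136 and 110 against 97.6 and 78.2 CPM, where this share was 12.7%. *F11r* in proximal tubule was higher, with 30.7 and 33.2 against 35.6 and 42 CPM, as were 16.4% of genes. In free RNA *F11r* stood above these levels in each mouse, at 44.2 and 44.0 against 50.8 and 53.6 CPM. In the vessels, *Vcam1* (74.6 and 140 against 67.7 and 81.2 CPM), *Icam1* (67.8 and 128 against 74.4 and 83.5 CPM) and *Mcam* (22.6 and 28.4 against 18.9 and 62.7 CPM) overlapped between genotypes. Over the 99 tests, 13 were lower in both knockout mice, 5 higher in both and 81 overlapped. The subclasses share their nuclei with CD-PCs as a whole, so these tests are not independent of each other. Over all genes, 12.7% to 20.8% by class were lower in both and 12.8% to 17.2% higher in both.

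Whether members changed differently in CD-PCs, where Cre acts, and in TAL, where it does not, was tested directly over the sums of both classes, with mouse and class as terms. None of the 8 members tested was called by edgeR, 0 had an unadjusted p under 0.05, and 0.0565% of all genes were called. For *Alcam* the change in CD-PCs minus that in TAL was -0.24 ± 0.36 (SE, log2), and for *Cadm1* it was 0.39 ± 0.30. *Bcam* (-0.16 ± 0.29) and *L1cam* (0.23 ± 0.29) differed from 0 by less than their standard errors. *Vcam1* and *Icam1* had too few UMIs to be tested.

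Related genes were followed as well. Of 42 other immunoglobulin-type adhesion genes, such as nectins, contactins and Robo receptors, between 1 and 39 could be tested in a class, and 0 were called in either direction in any of the 15 classes. Of 23 binding partners of the members, such as integrins, ezrin, claudin-7 and PAR3, 22 were in the files, and 0 were called in any class. In CD-PCs the median log2 fold change was 0.18 over 30 of the adhesion genes and 0.14 over 14 partners, beside -0.14 over the 7 members and 0.00 over all genes tested. In Aqp3-high cells the medians were 0.24 over 16 adhesion genes and 0.19 over 13 partners, beside -0.06 over the 7 members and -0.01 over all genes. In Aqp3-low cells and IMCD the medians lay on the other side for the adhesion genes, at -0.20 over 11 and -0.10 over 17, and were -0.07 over 13 and 0.04 over 12 for the partners, beside -0.03 and -0.02 over all genes. An unadjusted p under 0.05 was found in CD-PCs for 1 of the adhesion genes, 2 of the partners and 2.22% of all genes, and in Aqp3-high cells for 3, 1 and 4.18%.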

How the data were processed

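The deposited files hold raw UMI counts per gene and barcode, which the authors made with Cell Ranger 3.0.2 and mm10 without normalization or a filter on nuclei. A barcode was taken as a nucleus if it ranked among the 10000 deepest of its library, held between 500 and 4000 genes and had a mitochondrial share below 5%. Integration and clustering used Seurat 5.3.0 (2000 genes, 30 dimensions, resolution 0.5), CD-PCs again with resolution 0.2. Clusters took the class with at least 3 of its markers. The limits for damaged and mixed clusters and for subclasses were set after the clusters were seen. Damaged and mixed nuclei and unnamed clusters were left out, while an unnamed subcluster of 56 CD-PC nuclei stayed in CD-PCs as a whole. Doublets called with scanpy 1.11.5 were kept except in an alternative.

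UMIs were summed per mouse and class. A gene needed 10 UMIs in the 4 sums together to enter edgeR 4.0.16 (TMM, quasi-likelihood test on genotype, Benjamini-Hochberg within the class), where the study tested pooled nuclei. SE is the log2 fold change divided by the root of F. Classes needed at least 10 nuclei per mouse. The tests in CD-PCs, Aqp3-high cells, TAL and endothelial cells and the difference test were tested on simulated data. Alternatives were no TMM, DESeq2 1.42.0, no filter, filterByExpr, a replicate block, each mouse left out, under 1% mitochondrial UMIs, no called doublets, resolution 0.8 and clustering without the members. The members and lists were chosen with earlier results of these data known. Named are all 10 members, the 3 genes most alike to each, called genes of both lists, and *Tfap2a* and *Aqp2* as checks. *Aqp1*, *Slc4a1*, *Kit*, *Slc26a4*, *Cd74*, *Skap1*, *Cd3e* and the genes leading a cluster were named after their values were seen.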

Additional observations from a re-analysis of the deposited data

Results flagged for a closer look

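*Bcam* was lower in both knockout mice than in both control mice in Aqp3-high principal cells and higher in both in TAL, Aqp3-low cells, IMCD and CD-PCs as a whole. Its log2 fold change in Aqp3-high cells lay below that in the other classes by -0.56 against TAL, -0.58 against Aqp3-low cells, -0.55 against IMCD and -0.41 against all CD-PCs, which include the Aqp3-high nuclei. These differences were not tested, and in TAL *Bcam* lay within the range of free RNA, 30.2 to 89.7 CPM over the 4 mice.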

How the results depend on the processing

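No member was called under no TMM, DESeq2, no filter on low counts, filterByExpr, each mouse left out, under 1% mitochondrial UMIs, called doublets left out, resolution 0.8 or the members left out of clustering. With the replicate number as a block, 1 member test was called, *Cadm1* in immune cells. Replicates of the same number share only a number in the labels, and with 2 pairs the correlation of their deviations, 0.18 to 0.58 over the classes, is a hint from the data and not a pairing by design. No member was called for the difference between CD-PCs and TAL under any of these settings, nor with no replicate block.

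*Alcam* in Aqp3-high cells had a log2 fold change of 0.12 under 1% mitochondrial UMIs and ranged from -0.50 to 0.15 with each mouse left out. In CD-PCs *Cadm1* ranged from -0.45 to 0.44 and *Epcam* from -0.29 to 0.17 with each mouse left out, and *Cadm1* was -0.072 under 1% mitochondrial UMIs. The genes called over all classes were 10, and 32 with DESeq2, 239 with no filter, 439 with the replicate block, 34 under 1% mitochondrial UMIs and 60 to 262 with each mouse left out; the causes were not tested. Immune cells could not be fitted under 1% mitochondrial UMIs. Few UMIs limit *Mcam*, *Vcam1*, *Icam1* and *Ncam1* most.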
